A study of Mus musculus with 4 samples.

Results

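The Hox genes of the mouse were examined in visceral and parietal mesothelium, the sheet of flat epithelial cells that covers the organs and lines the walls of the body cavities. The 38 genes listed belong to the clusters Hoxa on chromosome 6, Hoxb on chromosome 11, Hoxc on chromosome 15 and Hoxd on chromosome 2, and they were taken by name, whatever their level. A gene counted as measured where the array annotation gave a probe set, called a probe here, this gene's symbol alone. By this rule 37 of the 38 were measured, out of 19938 genes on the array, each by 1 probe. The exception was Hoxb8, which shares its probe with Hoxb7.

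Visceral mesothelium had been taken from the omentum and parietal mesothelium had been teased off the skeletal muscle of the body wall, in adult, untreated mice on the C57BL/6 background. All samples of both tissues carried Wt1-cre, in which the Wt1 promoter drives Cre recombinase, and Rosa26ReYFP, a reporter that Cre turns on to make yellow fluorescent protein in cells with a history of Wt1 expression. RNA came from the native tissue, and the methods name no sort on the reporter before extraction. The paper states that nearly all of the input came from mesothelial cells, as judged by the reporter. Each tissue had 2 Affymetrix Mouse Gene 1.0 ST arrays, called biological replicates by the labels, which do not say which animals were behind each. The p-values therefore measure the spread between these arrays, which may be technical, and the number of arrays limits the precision. The values are log2 signals made by RMA, a method that corrects the background, equalizes the arrays and summarizes each probe on the log2 scale. A probe's level depends on its own sequence, so levels are compared between tissues and never between genes.

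Hox genes encode homeodomain transcription factors. In each cluster they lie in the order of their paralog numbers, and genes with low numbers, at the 3′ end, are activated earlier and farther forward in the embryo than those with high numbers, at the 5′ end. The overlapping domains give cells a positional identity along the body axis, and mesenchymal cells of adult organs keep much of the Hox pattern of their site of origin. The mesothelium of the omentum arises from splanchnic mesoderm and that of the body wall from somatic mesoderm. Hox proteins bind DNA together with homeodomain cofactors of the Pbx and Meis families, Cdx proteins activate Hox genes in the embryo, and Polycomb and MLL complexes keep them silent or active.

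Genes from the middle of the Hoxc and Hoxd clusters, with Hoxa9 and Hoxa10, were higher in parietal mesothelium, by up to 23.2-fold, while Hoxa2, Hoxa5 and Hoxb3 were higher in visceral mesothelium, by up to 2.08-fold. A difference, always visceral minus parietal on the log2 scale, was called where limma gave a Benjamini-Hochberg adjusted p under 0.05 over all 19938 genes and the fold was at least 1.5. Of the 37 Hox genes, 13 were called (35.1%), against 9.60% of all genes. Higher in visceral mesothelium were 3 (5.22% of all genes were called in this direction), namely Hoxa5, Hoxa2 and Hoxb3. Higher in parietal mesothelium were 10 (4.39% of all genes), namely Hoxc8, Hoxc6, Hoxa9, Hoxd8, Hoxd4, Hoxc9, Hoxc10, Hoxa10, Hoxd3 and Hoxc5. The analysis of variance named in the methods, run again here with Benjamini-Hochberg adjustment over 19938 genes, called 0 Hox genes and 0 of all genes. Without adjustment it called 12 Hox genes. The paper itself reports probes that passed this test with adjustment, so the rerun did not reproduce its result. The median difference was -0.19 over the Hox genes and 0.0015 over all genes, and over the 18 Hox genes above the median signal of all genes it turned to 0.10. The median size of the difference was 0.38 over the Hox genes, against 0.14 over all genes. In 29 of the 37 (78.4%) the arrays of the tissues did not overlap, compared with 56.3% of all genes. An exact permutation test of a single gene cannot go below p = 0.333 with 2 arrays against 2, so every p given here rests on the spread that limma pools over genes. RNA of whole tissue was measured, so fewer cells of a type and less RNA per cell cannot be told apart.

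**Figure D1:**
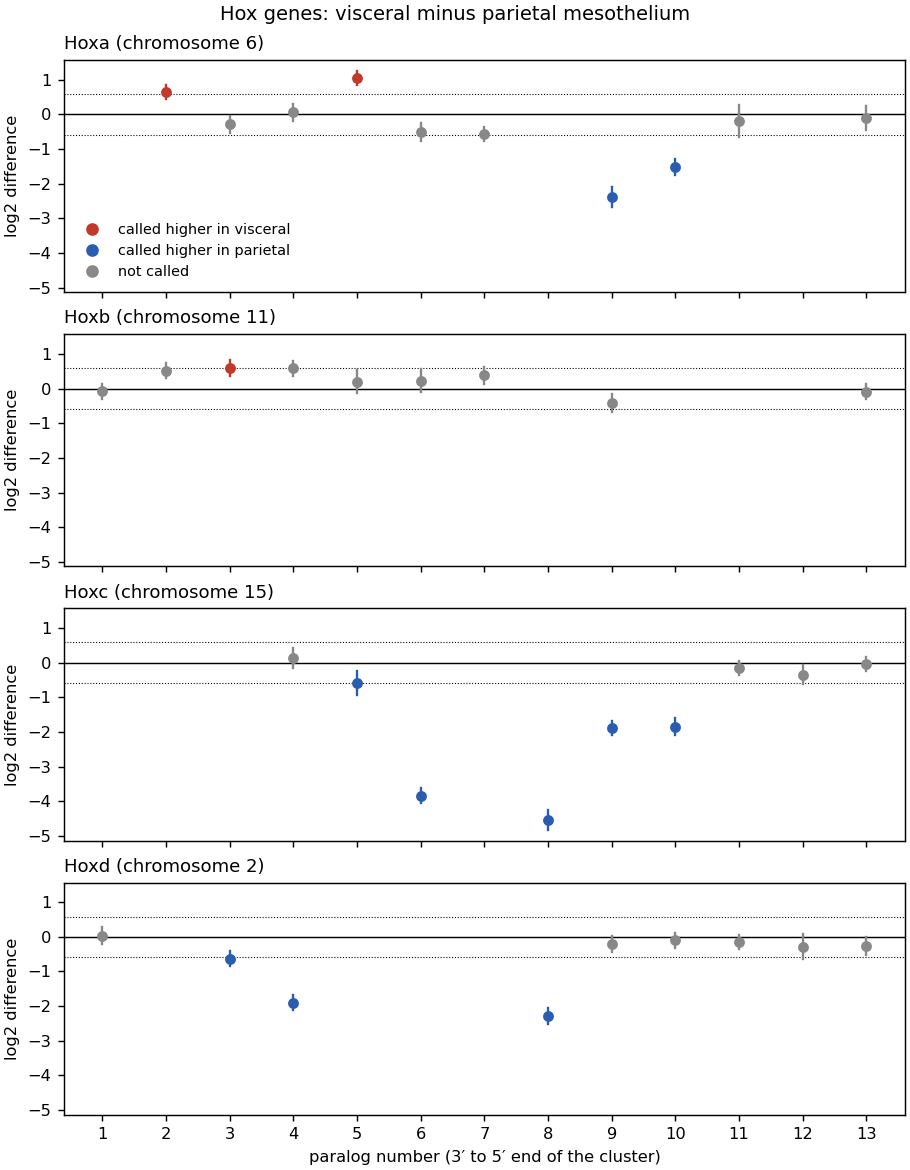
Log2 difference, visceral minus parietal (y axis), of the 37 measured Hox genes by paralog number (x axis), with a panel for each cluster; bars are 95% confidence intervals from limma and dotted lines mark a fold of 1.5. Hoxc8 (-4.54) and Hoxc6 (-3.84) lie lowest, Hoxa5 (1.05) highest, and all genes numbered 11 to 13 lie between -0.34 and -0.05.

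The arrays themselves separated the tissues most widely at Hoxc8 and Hoxc6, patterning genes of the thoracic region. Hoxc8 had log2 signals of 6.31 and 6.33 in visceral mesothelium, against 11.00 and 10.71 in parietal mesothelium. Its difference of -4.54 (standard error 0.12, limma adjusted p = 4.48e-05) is 23.2-fold and ranked 21 of 19938 genes by excess in parietal mesothelium. Hoxc6 had 6.47 and 6.57 in visceral mesothelium, compared with 10.30 and 10.41 in parietal mesothelium. Its difference was -3.84 (standard error 0.09, limma adjusted p = 3.32e-05), 14.3-fold, ranked 37. The arrays of each tissue lay close together in both genes, far from those of the other tissue.

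Posterior to these, Hoxc9 and Hoxc10 were also higher in parietal mesothelium. Hoxc9 measured 6.40 in each visceral array and 8.31 and 8.27 in the parietal arrays, a 3.71-fold difference of -1.89 (standard error 0.08, limma adjusted p = 1.47e-04). Hoxc10, a gene of the thoracic to lumbar transition and the hindlimb, measured 5.66 and 5.48 in visceral and 7.47 and 7.36 in parietal mesothelium, a 3.59-fold difference of -1.84 (standard error 0.10, limma adjusted p = 3.12e-04). In neither gene did a visceral array come near a parietal one. At the 3′ end of the cluster, Hoxc5 measured 8.13 and 7.74 in visceral against 8.56 and 8.50 in parietal mesothelium. Its difference of -0.59 (standard error 0.14, limma adjusted p = 0.0465) lay at both thresholds. It lost the call without visceral replicate 2 (-0.40, limma adjusted p = 0.0941), without parietal replicate 1 (-0.57, limma adjusted p = 0.100) and without parietal replicate 2 (-0.62, limma adjusted p = 0.0765), and in a fit over all probes (limma adjusted p = 0.107). Hoxc4, next to it, was at 8.55 and 8.27 in visceral and 8.28 and 8.26 in parietal mesothelium and overlapped between tissues. The cluster thus held 5 genes called higher in parietal mesothelium, none higher in visceral mesothelium and 4 not called, namely Hoxc4, Hoxc11, Hoxc12 and Hoxc13, with a median difference of -0.59.

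**Figure D2:**
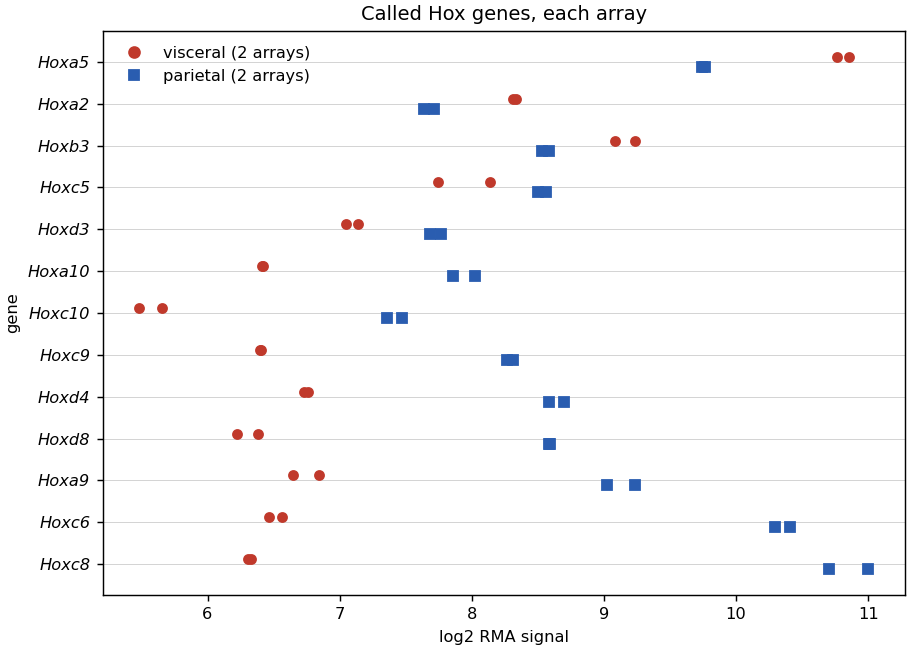
Log2 RMA signal (x axis) of the 13 called Hox genes (y axis), ordered by their difference, in each of 2 visceral (circles) and 2 parietal arrays (squares). Chosen by their calls on these same arrays, the genes show no overlap between tissues. Hoxc8 has the widest gap, with 6.31 and 6.33 in visceral against 11.00 and 10.71 in parietal mesothelium.

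In the Hoxd cluster the genes higher in parietal mesothelium were those from Hoxd3 to Hoxd8, and the numbers from 9 upward were not called. Hoxd8 had 6.38 and 6.23 in visceral and 8.59 and 8.58 in parietal mesothelium, a 4.88-fold difference of -2.29 (standard error 0.09, limma adjusted p = 1.27e-04). Hoxd4, which patterns the hindbrain and the neck vertebrae, had 6.73 and 6.76 in visceral and 8.59 and 8.70 in parietal mesothelium, a 3.73-fold difference of -1.90 (standard error 0.09, limma adjusted p = 1.75e-04). In both, the highest visceral array lay below the lowest parietal array. Hoxd3 had 7.05 and 7.14 in visceral against 7.69 and 7.77 in parietal mesothelium, and its difference of -0.63 (standard error 0.09, limma adjusted p = 0.00712), 1.55-fold, stayed called on leaving out each array (highest limma adjusted p 0.0368). Hoxd1 at the 3′ end differed by 0.03 and overlapped between tissues. Hoxd9, Hoxd10, Hoxd11, Hoxd12 and Hoxd13, the genes of the limbs and the urogenital tract, differed by -0.28 to -0.10. None of these 5 passed, though each was lower in both visceral arrays than in either parietal array; arrays did not overlap in 56.3% of all genes, in either direction. The median over the 9 Hoxd genes was -0.25.

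The Hoxa cluster held genes called in both directions, higher in visceral mesothelium at its 3′ part and higher in parietal mesothelium at its 5′ part. Hoxa5, needed for the lung and the neck to thorax boundary, had 10.85 and 10.76 in visceral and 9.77 and 9.74 in parietal mesothelium. It was 2.08-fold higher in visceral mesothelium, a difference of 1.05 (standard error 0.08, limma adjusted p = 0.00106). Hoxa2, which patterns the hindbrain and the second branchial arch, had 8.33 and 8.32 in visceral and 7.72 and 7.64 in parietal mesothelium, a difference of 0.65 (standard error 0.08, limma adjusted p = 0.00551) or 1.57-fold. Hoxa9, by contrast, had 6.84 and 6.65 in visceral and 9.23 and 9.03 in parietal mesothelium, a 5.23-fold difference of -2.39 (standard error 0.12, limma adjusted p = 2.15e-04). Hoxa10, known for its part in the uterus and the lumbar spine, had 6.42 in each visceral array and 8.02 and 7.86 in the parietal arrays, a 2.88-fold difference of -1.52 (standard error 0.09, limma adjusted p = 4.39e-04).

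Between these groups, Hoxa6 and Hoxa7 passed the adjusted p but not the fold, both lower in the visceral arrays. Hoxa6 measured 9.19 and 9.09 in visceral against 9.74 and 9.56 in parietal mesothelium (-0.51, limma adjusted p = 0.0248), and Hoxa7 measured 9.03 and 8.95 against 9.59 and 9.54 (-0.57, limma adjusted p = 0.00913). Hoxa7 reached the fold of 1.5 without visceral replicate 1 (-0.61) and without parietal replicate 2 (-0.60), and after both further normalizations of the arrays (-0.60 and -0.59), and Hoxa6 without parietal replicate 2 (-0.60). Hoxa3 differed by -0.28 and Hoxa4 by 0.05, neither passing. At the 5′ end, Hoxa11 (-0.19) and Hoxa13 (-0.11) overlapped between tissues. Read along the cluster, differences were positive at Hoxa2, Hoxa4 and Hoxa5, and negative at Hoxa3 and at every measured gene from Hoxa6 onward. With 2 genes called each way and 6 not called, the median over the 10 Hoxa genes was -0.24.

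Among the 9 Hoxb genes with a probe of their own, differences were at most 1.52-fold and 1 was called. Hoxb3, a hindbrain and pharyngeal gene, had 9.08 and 9.24 in visceral and 8.59 and 8.53 in parietal mesothelium, a difference of 0.60 (standard error 0.09, limma adjusted p = 0.0110) or 1.52-fold. It fell short of the fold without visceral replicate 2 (0.52), without parietal replicate 2 (0.58) and after a further quantile normalization (0.57). Both neighbours passed the adjusted p alone. Hoxb4, known for its effect on blood stem cells, had 8.50 and 8.57 in visceral and 7.906 and 8.004 in parietal mesothelium (0.58, limma adjusted p = 0.0100), and reached the fold without visceral replicate 1 (0.62) and without parietal replicate 2 (0.63). Hoxb2 had 8.58 and 8.48 in visceral and 7.99 and 8.06 in parietal mesothelium (0.51, limma adjusted p = 0.0158). In each of these 3 the visceral arrays were both above the parietal arrays, where 56.3% of all genes did not overlap in one direction or the other. Hoxb5, Hoxb6 and Hoxb7 differed by 0.20, 0.23 and 0.38 and did not pass. Hoxb9 had 7.32 and 7.53 in visceral against 7.82 and 7.86 in parietal mesothelium (-0.41, limma adjusted p = 0.0501). Hoxb1 (-0.08) and Hoxb13 (-0.09) at the ends of the cluster overlapped between tissues. No Hoxb gene was called higher in parietal mesothelium. The median over the 9 genes was 0.23, with 0.42 without visceral replicate 1 and 0.04 without visceral replicate 2. The probe shared by Hoxb8 and Hoxb7, which cannot tell them apart, measured 6.85 and 6.56 in visceral and 5.86 and 6.11 in parietal mesothelium, a difference of 0.72 (standard error 0.15, adjusted p = 0.0698 in limma's fit over all probes).

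**Figure D3:**
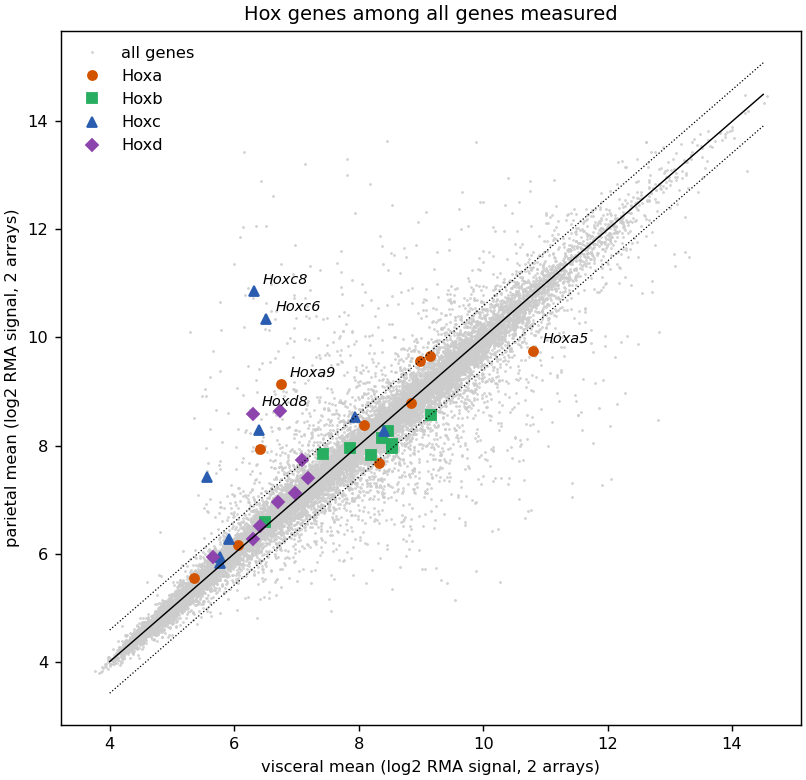
Mean log2 RMA signal of 2 parietal arrays (y axis) against that of 2 visceral arrays (x axis) for 19938 genes (grey), with the Hox genes marked by cluster; the solid line marks equal signal and the dotted lines a fold of 1.5. Hoxc8 and Hoxc6 lie far above the line, at visceral means of 6.32 and 6.52, and Hoxa5 lies below it.

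Grouped by paralog number, numbers 3 and 5 held genes called in opposite directions. Number 5 held Hoxa5 higher in visceral mesothelium (1.05), Hoxb5 at 8.32 and 8.63 in visceral and 8.18 and 8.38 in parietal mesothelium (0.20, not called) and Hoxc5 higher in parietal mesothelium (-0.59). Number 3 held Hoxb3 (0.60) and Hoxd3 (-0.63), with Hoxa3 at 8.09 in both visceral arrays and 8.27 and 8.48 in the parietal arrays (-0.28, not called). In number 4, Hoxd4 was called (-1.90), while Hoxa4 measured 8.80 and 8.89 in visceral and 8.72 and 8.87 in parietal mesothelium and differed by 0.05, and Hoxb4 (0.58) and Hoxc4 (0.14) were not called. In number 6, Hoxc6 (-3.84) stood beside Hoxa6 (-0.51), which passed the adjusted p alone, and Hoxb6, which measured 8.18 and 8.56 in visceral and 8.14 in both parietal arrays (0.23, not called). Number 8 had both of its measured genes, Hoxc8 and Hoxd8, higher in parietal mesothelium. Hoxb8 was not measured by itself, and the probe it shares with Hoxb7 had the opposite sign (0.72) and did not pass. The differences between paralogs were not tested.

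All 7 genes of numbers 9 and 10 were lower in both visceral arrays than in either parietal array, where 56.3% of all genes did not overlap in one direction or the other. Of these, 4 were called, with a median over the 7 of -1.52. Those not called were Hoxb9 (given above), Hoxd9 at 7.29 and 7.10 in visceral and 7.39 and 7.42 in parietal mesothelium (-0.21), and Hoxd10 at 6.41 and 6.40 in visceral and 6.45 and 6.57 in parietal mesothelium (-0.10). Of the 14 genes of numbers 4 to 8, a single gene was called with its excess in visceral and 5 with theirs in parietal mesothelium. Among the 7 of numbers 1 to 3 the counts were 2 for visceral and 1 for parietal mesothelium. Over all genes, 5.22% were called with a visceral excess and 4.39% with a parietal excess. Whether the counts differed between these groups of numbers was not tested. None of the 9 genes of numbers 11 to 13, the most posterior ones, was called. Their differences were all negative, from -0.34 at Hoxc12 to -0.05 at Hoxc13, with visceral signals of 5.20 to 6.98 and parietal signals of 5.30 to 7.15. The 8 genes at least 2-fold higher in parietal mesothelium had visceral signals of 5.48 to 6.84 and parietal signals of 7.36 to 11.00. No detection p was used here, so whether the lower signals lie above background is not known, and a fold against them may understate the change.

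Adjusted p-values under 0.05, with no fold required, were reached by 17 Hox genes, compared with 14.2% of all genes. For the 20 Hox genes that missed the threshold, the 95% confidence intervals of the differences spanned -0.67 to 0.62, and a missed threshold does not show that they did not differ. Leaving out each array in turn, Hoxc8 stayed between -4.68 and -4.39, Hoxc6 between -3.89 and -3.78, and Hoxa5 between 1.01 and 1.10.

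**Figure D4:**
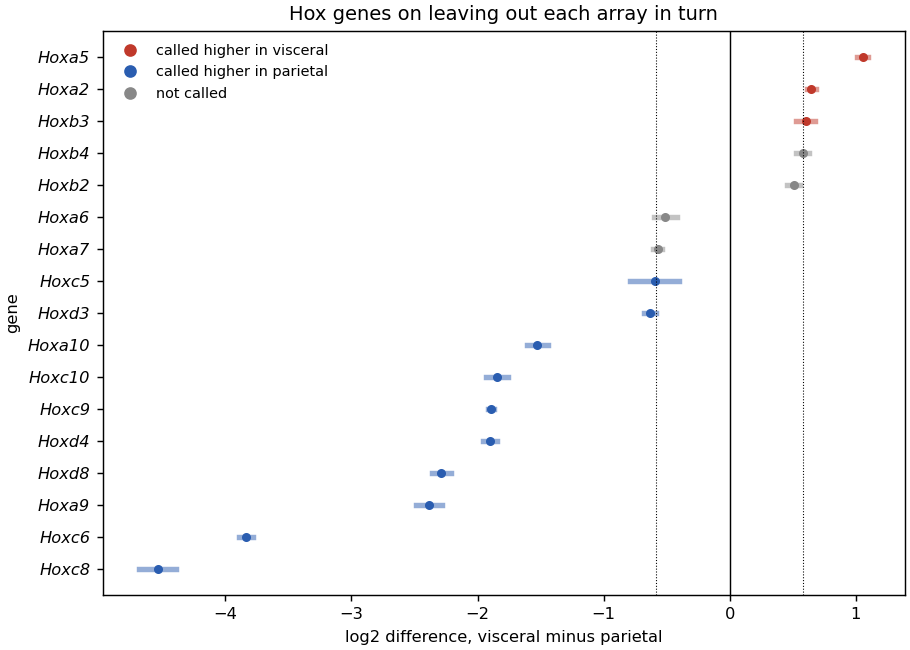
Log2 difference, visceral minus parietal (x axis), of the 17 Hox genes with a limma adjusted p under 0.05 (y axis); points are values from all 4 arrays, bars the range on leaving out each array in turn, and dotted lines a fold of 1.5. The bar of Hoxc5 is the widest here, -0.79 to -0.40. No bar could cross 0, since the arrays of the tissues did not overlap in any of these genes.

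The stretch before the transcription start was available for 22 of the 38 genes in RefSeq promoters of the GRCm38.p6 build, 24 promoters in all, and covered 7 of the 13 called genes. Both genes of Hoxa called higher in visceral mesothelium and Hoxd4, called higher in parietal mesothelium, are shown as 250 bases before the start, 5′ to 3′ on the strand of the gene. Capitals mark matches on either strand to TATAAA (the TATA box), TTTATG (a Cdx site) or TGATTNAT (a Pbx-Hox site), which do not overlap here.
Hoxa2 (chr6:52164832-52165081, minus strand, higher in visceral): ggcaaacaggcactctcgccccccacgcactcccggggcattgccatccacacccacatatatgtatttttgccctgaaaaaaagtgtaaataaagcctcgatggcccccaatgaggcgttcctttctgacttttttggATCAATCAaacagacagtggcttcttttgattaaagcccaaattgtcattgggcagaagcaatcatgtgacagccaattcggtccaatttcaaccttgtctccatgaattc
Hoxa5 (chr6:52204588-52204837, minus strand, higher in visceral): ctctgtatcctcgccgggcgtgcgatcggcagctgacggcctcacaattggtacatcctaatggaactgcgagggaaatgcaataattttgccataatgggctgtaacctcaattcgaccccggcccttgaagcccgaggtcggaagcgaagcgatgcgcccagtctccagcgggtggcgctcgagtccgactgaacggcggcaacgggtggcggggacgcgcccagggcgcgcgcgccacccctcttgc
Hoxd4 (chr2:74721728-74721977, plus strand, higher in parietal): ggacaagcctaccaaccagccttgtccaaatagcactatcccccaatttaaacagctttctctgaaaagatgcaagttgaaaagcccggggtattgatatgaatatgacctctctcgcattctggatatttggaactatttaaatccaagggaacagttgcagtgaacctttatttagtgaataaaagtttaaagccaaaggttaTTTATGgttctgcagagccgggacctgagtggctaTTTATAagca
The stretch of Hoxa2 holds a Pbx-Hox match and that of Hoxd4 a Cdx match and a TATA box, the TATA letters being on the other strand, while that of Hoxa5 holds none of the 3 motifs. Among the 24 Hox promoters, 4 had the TATA motif, 5 the Cdx motif and 2 the Pbx-Hox motif. Over all 32851 promoters in RefSeq, cut to the same length, the shares with a match were 12.4%, 10.8% and 2.82%. A match describes the letters and is no evidence of binding. Hox promoters held a median of 12.5 CpG dinucleotides, from 2 to 35, and all promoters a median of 6.

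The Hox clusters also hold microRNAs, whose mature strands repress target messages through a seed of bases 2 to 8. Those of the families miR-196 and miR-10 are shown with the seed in capitals, since Mir196b and Mir196a-2 lie between pairs of called genes and miR-10 is another family of the clusters, with coordinates from RefSeq (GRCm38.p6).
mmu-miR-196a-5p (from Mir196a-1, chr11:96265187-96265208, plus strand, between Hoxb13 and Hoxb9, and from Mir196a-2, chr15:102973365-102973386, plus strand, between Hoxc10 and Hoxc9): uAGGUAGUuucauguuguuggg
mmu-miR-196b-5p (Mir196b, chr6:52230129-52230150, minus strand, between Hoxa9 and Hoxa10): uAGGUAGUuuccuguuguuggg
mmu-miR-10a-5p (Mir10a, chr11:96317186-96317208, plus strand): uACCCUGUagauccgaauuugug
mmu-miR-10b-5p (Mir10b, chr2:74726074-74726096, plus strand, between Hoxd4 and Hoxd1): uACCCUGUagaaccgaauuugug
Members of each family share their seed, and differ outside it by A12C between miR-196a and miR-196b and by U12A between miR-10a and miR-10b, positions counted from the 5′ end. An array of this kind detects the precursor transcript and not the mature strand. Mir196b, between the 2 Hoxa genes called higher in parietal mesothelium, had 6.54 and 6.51 in visceral and 6.95 and 6.91 in parietal mesothelium, and passed the adjusted p but not the fold (-0.41, limma adjusted p = 0.0253). Mir196a-2, between Hoxc10 and Hoxc9, had 4.88 and 5.15 in visceral and 5.41 and 5.52 in parietal mesothelium (-0.45, limma adjusted p = 0.0610). Mir196a-1 in Hoxb differed by -0.25 (limma adjusted p = 0.146). For all 3 of this family the visceral arrays lay below the parietal arrays, though arrays did not overlap in 56.3% of all genes, in either direction. None of the 3 was called. Mir10a (0.13) and Mir10b (-0.10) did not pass, at signals of 4.32 to 4.88 in visceral and 4.40 to 4.75 in parietal mesothelium.

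Of 18 noncoding and Evx genes of the clusters, 11 were measured and none was called, with a median difference of -0.12. The antisense transcript Hoxaas2 had 7.53 and 7.78 in visceral and 7.21 in both parietal arrays (0.45, limma adjusted p = 0.0504). Hoxd3os1, opposite to Hoxd3, had 6.87 and 7.27 in visceral and 7.59 and 7.60 in parietal mesothelium (-0.52, limma adjusted p = 0.0700). A dimmer probe of Hoxd3os1 differed by -0.45. In limma's fit over all probes its adjusted p was 0.0480, against 0.1425 for the probe used. Hoxaas2 and Hoxd3os1 each had the sign of a called gene next to it, Hoxa2 and Hoxd3. On their other sides, Hoxa3 had the opposite sign to Hoxaas2 (-0.28, not called) and Hoxd8 the same sign as Hoxd3os1 (-2.29). Hottip, a noncoding RNA made beyond the 5′ end of Hoxa, differed by 0.08. The even-skipped homologs Evx1 (-0.09) and Evx2 (-0.12), which flank Hoxa and Hoxd, also did not pass.

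Of 21 measured protein-coding genes among the 24 nearest to the clusters, 18 were not called. The share called over all genes was 9.60%. Ttll6, a tubulin glutamylase beside Hoxb, was higher in visceral mesothelium, at 7.92 and 7.68 against 6.79 and 6.82 in parietal mesothelium (0.99, limma adjusted p = 0.0030). The ATP synthase genes Atp5g1 beside Hoxb (-0.79, limma adjusted p = 0.0125) and Atp5g3 beside Hoxd (-0.67, limma adjusted p = 0.0145) were higher in parietal mesothelium. Beside Hoxc, where the widest differences lay, the 5 measured neighbours differed by -0.42 to 0.16 and none was called, and beside Hoxa the 6 neighbours differed by -0.32 to 0.49 and none was called.

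Of the cofactors of Hox proteins, Meis1 and Pbx3 were higher in visceral mesothelium. Of 9 TALE genes, which encode homeodomain partners with an extra loop of amino acids, 8 were measured, with a median difference of 0.28. These 2 were called, both with a visceral excess. Of all genes, 9.60% were called, 5.22% with a visceral excess. Meis1 had 11.18 and 11.05 in visceral and 10.62 and 10.31 in parietal mesothelium (0.64, standard error 0.13, limma adjusted p = 0.0249). Pbx3 had 8.96 and 9.10 in visceral and 8.51 and 8.36 in parietal mesothelium (0.60, standard error 0.10, limma adjusted p = 0.0149). Meis3 passed the adjusted p but not the fold (0.52, limma adjusted p = 0.0110). The visceral arrays lay above the parietal arrays in each of these 3, where 56.3% of all genes did not overlap in one direction or the other. Meis2 (-0.17) was the gene of the list with a negative difference and did not pass.

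Of the upstream regulators listed, Psip1 was the only gene called, where 9.60% of all genes were called. None of 5 measured genes of Cdx and hindbrain regulation was called, and Cdx1 (0.06), Cdx2 (-0.09) and Cdx4 (0.08), activators of Hox genes in the embryo, each overlapped between tissues. None of 15 Polycomb genes was called. Ezh2, the enzyme that places the repressive H3K27 methyl mark, had 9.67 and 9.42 in visceral and 9.29 and 8.81 in parietal mesothelium (0.50, limma adjusted p = 0.146), the widest difference of that list. Of 9 genes of the MLL complexes and the demethylases that remove this mark, 1 was called, Psip1, a chromatin reader that tethers MLL, at 9.26 and 9.02 in visceral and 8.53 and 8.38 in parietal mesothelium (0.69, limma adjusted p = 0.0150). Kmt2a, which encodes MLL itself, differed by 0.28 (limma adjusted p = 0.150).

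**Figure D5:**
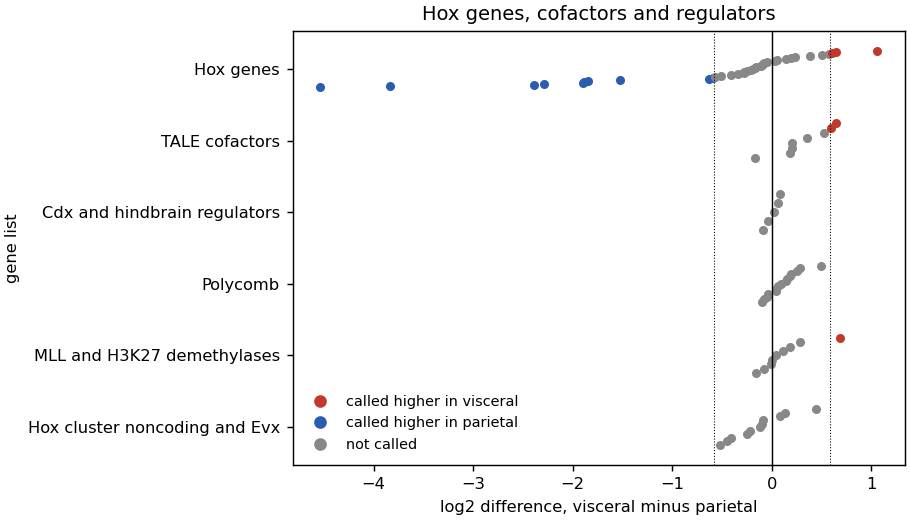
Log2 difference, visceral minus parietal (x axis), of each measured gene of the Hox clusters and 5 lists of cofactors, regulators and cluster transcripts (y axis); each point is a gene, spread vertically for sight only, and dotted lines mark a fold of 1.5. Hox genes reach -4.54 and 1.05, while the other lists stay between -0.52 and 0.69.

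The samples also differed in markers of other cells, measured on the same arrays. Over all genes, the share called was 9.60%. All 16 skeletal muscle markers were called higher in parietal mesothelium, with linear signals summed over the list of 2413 to 2463 in visceral and 78085 to 99787 in parietal arrays. Of 8 genes of satellite cells and myoblasts 2 were higher in parietal mesothelium, with sums of 817 to 834 in visceral and 1269 to 1611 in parietal arrays. All 12 markers of macrophages and dendritic cells were higher in visceral mesothelium, with sums of 31630 to 33502 in visceral and 6032 to 7155 in parietal arrays, as were 5 of 7 B cell markers (1495 to 1853 in visceral, 572 to 636 in parietal arrays) and 5 of 6 mast cell markers (6149 to 8208 in visceral, 667 to 740 in parietal arrays). In a joint list of 8 smooth muscle and pericyte genes, 4 were higher in visceral mesothelium, namely Myh11, Cnn1, Myl9 and Tagln. From the same list 2 were higher in parietal mesothelium, Des and Rgs5 (6714 to 10033 in visceral, 6269 to 7460 in parietal arrays). Of 8 fibroblast genes 2 had a visceral and 3 a parietal excess (50618 to 50690 in visceral, 46969 to 52219 in parietal arrays). Of 8 endothelial genes 2 were higher in parietal mesothelium (3013 to 3163 in visceral, 4065 to 4329 in parietal arrays), and of 8 adipocyte genes none was called (1389 to 1559 in visceral, 1515 to 2520 in parietal arrays). Mesothelial markers were present in both tissues, with Wt1 (0.84) as the only 1 of 15 markers called with a visceral excess, and 7 called higher in parietal mesothelium, led by mesothelin, Msln (-2.14). Their sums were 59452 to 61205 in visceral and 90347 to 92914 in parietal arrays, and Upk3b, at 13.59 and 13.65 in visceral and 13.79 and 13.84 in parietal mesothelium, was not called. The part of these cells in the Hox differences was not tested.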

How the data were processed

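RNA of 2 visceral and 2 parietal mesothelium samples was measured on 4 arrays. The authors normalized the arrays by RMA and deposited log2 values; Partek 6.6 is named in the submitters' processing notes. For the array library, a version is not given in the sources used here. No further normalization was applied before testing. Array medians were 7.38 to 7.41, and Pearson's r across probes was 0.992 between visceral arrays, 0.993 between parietal arrays and 0.965 to 0.969 between tissues. Of 35556 probes, the platform annotation gave 21789 a single symbol, 1621 several and 12146 none; 21698 were found in the RefSeq table (GRCm38.p6), with 0 symbols changed. For 999 of 19938 genes with more than 1 probe, the brightest on average stood for the gene.

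Visceral was tested against parietal mesothelium in R 4.3.3 by limma 3.58.1 (lmFit and eBayes, no block, all genes in the fit), with code tested on simulated data. Intervals are at 95%. The methods' analysis of variance, other fold thresholds, variance priors, normalizations, probe rules, a signal filter, the replicate number as a block and leaving out each array were tried as alternatives. Array values were given for called members, and for their uncalled paralogs where these were compared; other genes came from lists of cofactors, regulators, cluster transcripts and cell markers and the 3 nearest protein-coding genes on each side of a cluster, and lncRNA genes inside the clusters were added afterwards. The members and lists were chosen with earlier results of these data known. No scan date was used, so batches of arrays were not examined.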

Additional observations from a re-analysis of the deposited data

How the results depend on the processing

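Direction held for each of the 13 called genes in each of 17 alternatives that gave it a value (0 reversals). Most alternatives could not have reversed it. Tests, fold thresholds, priors, probe rules, the signal filter and the block left the difference of these genes unchanged. Their arrays did not overlap between tissues, so leaving out any array could not turn the sign. Only the further normalizations could have done so. Of the 13, 9 lost no call in any alternative that gave them a value, other than the methods' analysis of variance with Benjamini-Hochberg adjustment. As run here, that test called 0 Hox genes, 0 in every cluster and direction and 0 of all 19938 genes. Without adjustment it called 12 Hox genes and 1582 genes in all, and limma called 13 and 1915. The paper reports probes that passed this test with adjustment, and the cause of these differences was not tested. With no fold threshold, 5 Hox genes were called higher in visceral mesothelium, 4 Hoxa genes higher in parietal mesothelium and 3 Hoxb genes, all higher in visceral mesothelium. With a fold of at least 2, and with limma's treat against 1.5-fold, 1 Hox gene was called higher in visceral mesothelium, a Hoxa gene, and 0 Hoxb genes, and over all genes the counts were 978 and 724. Quantile normalization again left 0 Hoxb genes called and a median Hoxc difference of -0.63. The filter to genes above the median signal left out the dimmer members and every Hoxd gene by construction. Of the 18 Hox genes it kept, 7 were called, against 14.1% of all 9969 genes it kept. Of these 7, 4 had a parietal excess (1 Hoxa, 3 Hoxc and 0 Hoxd). With this filter the median Hoxc difference was -2.22, and the median over the Hox genes reversed to 0.10. Leaving out each array in turn, 11 to 15 Hox genes were called, 2 to 4 higher in visceral and 9 to 11 in parietal mesothelium, with 2 to 4 Hoxa genes higher in parietal mesothelium and 0 to 2 Hoxb genes, all higher in visceral mesothelium. The medians over these fits were -0.28 to -0.14 for all Hox genes, -0.41 to -0.13 for Hoxa, 0.04 to 0.42 for Hoxb, -0.79 to -0.48 for Hoxc and -0.32 to -0.19 for Hoxd.

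The labels number the arrays in each tissue but do not tie the numbers to animals. Deviations of the replicates numbered 1 from their tissue means correlated at 0.36 over 19938 genes, a hint from the data and not the design. With the replicate number as a replicate block, 2008 genes were called, against 1915 without it, and the Hox calls were again 13, 3 higher in visceral and 10 in parietal mesothelium; it ended no call of a called Hox gene. Precision is limited by 2 arrays a tissue, the level of background is unknown, and no call of a dim gene was checked against it.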

Other observations

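RefSeq places 31 noncoding genes and pseudogenes inside the 4 clusters, of which 10 were measured. A single gene of them was called (9.60% of all genes were), the lncRNA gene 5730596B20Rik between Hoxa3 and Hoxa4, a choice made once its values had been seen. It measured 8.09 and 7.91 in visceral and 6.67 and 6.93 in parietal mesothelium, a difference of 1.20 (standard error 0.12, limma adjusted p = 0.00274) or 2.30-fold. Its protein-coding neighbours on either side, Hoxa3 (-0.28) and Hoxa4 (0.05), were not called, and Hoxa5, beyond Hoxa4, was higher in visceral mesothelium (1.05). Overlap of its probe with other transcripts was not examined here.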
